A study of Ovis aries with 3 samples.

Results

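Apolipoproteins are the protein parts of lipoproteins, the particles that move cholesterol, phospholipid and triglyceride between cells. Liver and intestine make most of them after birth. In the conceptus (the embryo with its membranes), the extraembryonic endoderm that lines the yolk sac is a known site of their synthesis. APOA1 and APOA2 are the main proteins of high density lipoprotein, while APOB is the structural protein of the larger triglyceride-carrying particles. Here the genes of this family were followed in RNA from extracellular vesicles, small particles enclosed by a membrane that are shed from cells. They were chosen by symbol. A row of the deposited table was taken if its name, without a numbered suffix, was APOA1, APOA2, APOA4, APOB, APOC2, APOC3, APOE, APOH or APOM. All 9 symbols had 1 row each, 9 of the 25197 rows in all, and none had numbered copies.

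The vesicles came from conceptuses of sheep at day 14 of pregnancy. Intact conceptuses were kept for 24 h, each in its own dish, in 10 ml of DMEM/F-12 with insulin and 10% bovine serum freed of exosomes. The 3 libraries form 1 group with no control group, and RNA of the conceptus cells or of medium without a conceptus was not analysed here. They are called libraries 1, 2 and 3 here, and the labels give no genotype or breed and name no animal for a library. P-values over libraries thus rest only on these 3 samples, whose spread may be technical in part. The exact sign-flip permutation test used gives p = 0.25 whenever all 3 differences share a sign, whatever their spread.

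Values are in RPKM-type units, reads scaled for gene length and library depth, so that levels of different genes can be set side by side. A gene counted as detected if none of its 3 values was below 1. Summed values ran from 9531.8 in library 3 to 40060.3 in library 2, a ratio of 4.20. Depth estimated from the smallest steps in copies of the U6 small nuclear RNA differed by at most 1.28 times. The median row stood at 0.1 in every library. Stray reads were gauged from 476 olfactory receptor genes, whose 99th percentile was 1.45, 1.025 and 1.75 in libraries 1, 2 and 3.

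The apolipoprotein signal lay in APOA1 and APOA2. APOA1 was detected, with a mean of 7.53 ± 2.40 (SD, n = 3), and APOA2 averaged 3.07 ± 2.25 (SD, n = 3). The other 7 genes stayed at 0.5 or below in every library, where 82.1% of all rows stayed below 1 throughout. Together APOA1 and APOA2 made up 87.3%, 94.6% and 96.8% of the summed value of the 9 genes in libraries 1, 2 and 3. By the rule for detection 1 of 9 genes passed (11.1%), where 3.89% of all rows did, and nothing about the family is read from this single call. Library by library, 1, 2 and 2 of the 9 genes had a value of at least 1, as did 9.37%, 13.6% and 7.88% of all rows in libraries 1, 2 and 3. The median of the 9 genes was 0.2, 0.2 and 0.1 in libraries 1, 2 and 3, beside 0.1 for all rows.

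**Figure D1:**
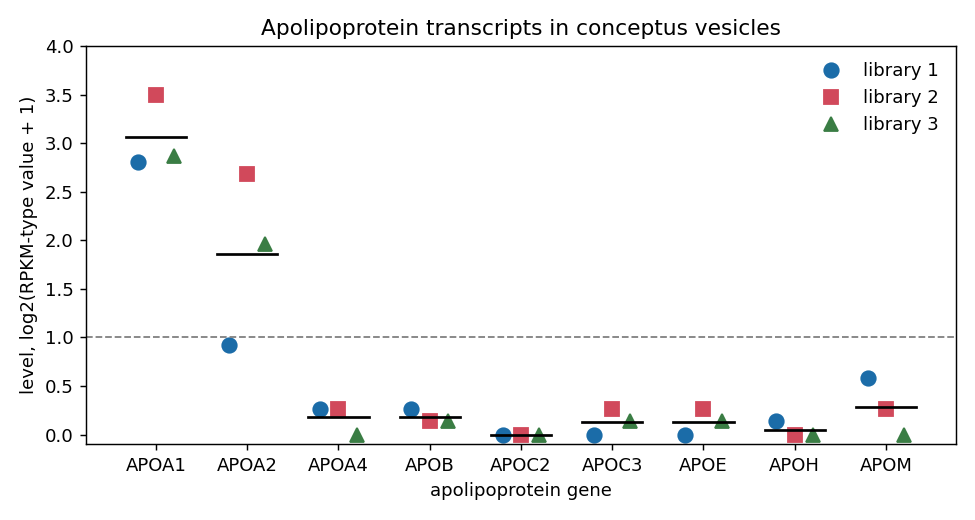
Levels of the 9 apolipoprotein genes as log2(value + 1) on the vertical axis, with 1 point per library and a horizontal bar at the mean over 3 libraries; the dashed line marks a value of 1. APOA1 lies above the line in all 3 libraries, APOA2 in libraries 2 and 3, and the other 7 genes stay at or below a value of 0.5.

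APOA1 (ENSOARG00000002586) encodes apolipoprotein A-I, which takes up cholesterol from cells and activates the plasma enzyme LCAT. It stood at 6, 10.3 and 6.3 in libraries 1, 2 and 3. Libraries 1 and 3 were close to each other and library 2 was higher, as it was for 742 of the 981 detected rows (75.6%). In rank, APOA1 was the 280th, 453rd and 192nd highest row of the 3 libraries. These ranks correspond to the 98.9th, 98.2nd and 99.2nd percentiles of all rows. APOA1 exceeded the olfactory receptor percentile 4.14-fold, 10.0-fold and 3.6-fold, and it also exceeded the highest single olfactory receptor row in each library (3, 1.9 and 3.4).

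The reads behind these values can be bounded from below. A single read in a U6 row added about 0.423, 0.543 and 0.449 to the value in libraries 1, 2 and 3, and in a longer transcript it adds less. The APOA1 values therefore stood for at least 14.2, 19.0 and 14.0 reads. For APOA2 the same bound was 2.13, 9.95 and 6.46 reads. Counting error is thus a larger part of the APOA2 values, above all in library 1.

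APOA2 (ENSOARG00000009808) encodes apolipoprotein A-II, the partner of APOA1 in high density lipoprotein. It stood at 0.9, 5.4 and 2.9 in libraries 1, 2 and 3, with library 1 the lowest and library 2 again the highest. The value in library 1 fell 1 rounding step (0.1) short of the detection value, and APOA2 was not detected for that reason alone. It lay at the 90.1st, 96.8th and 97.9th percentiles of all rows. APOA2 was above the olfactory receptor percentile in libraries 2 and 3 and below it in library 1. In library 3 its value was under the highest olfactory receptor row.

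APOA1 exceeded APOA2 in each of the 3 libraries, 6.67-fold, 1.91-fold and 2.17-fold. The difference of log2(value + 1), APOA1 minus APOA2, was 1.88, 0.82 and 0.90, with a mean of 1.20 ± 0.59 (SD, n = 3; two-sided p = 0.25 by an exact permutation test that flips signs). That p is the smallest that 3 libraries allow, so the test could not pass 0.05. As deposited, the ranges of the genes over libraries did not overlap. The highest value of APOA2 (5.4) was below the lowest of APOA1 (6). As shares of the library sum (described below) the ranges overlapped, with APOA2 at 304 ppm in library 3 and APOA1 at 257 ppm in library 2. Divided by the median of the detected rows they did not, with APOA2 at 1.16 at most and APOA1 at 1.49 at least.

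**Figure D2:**
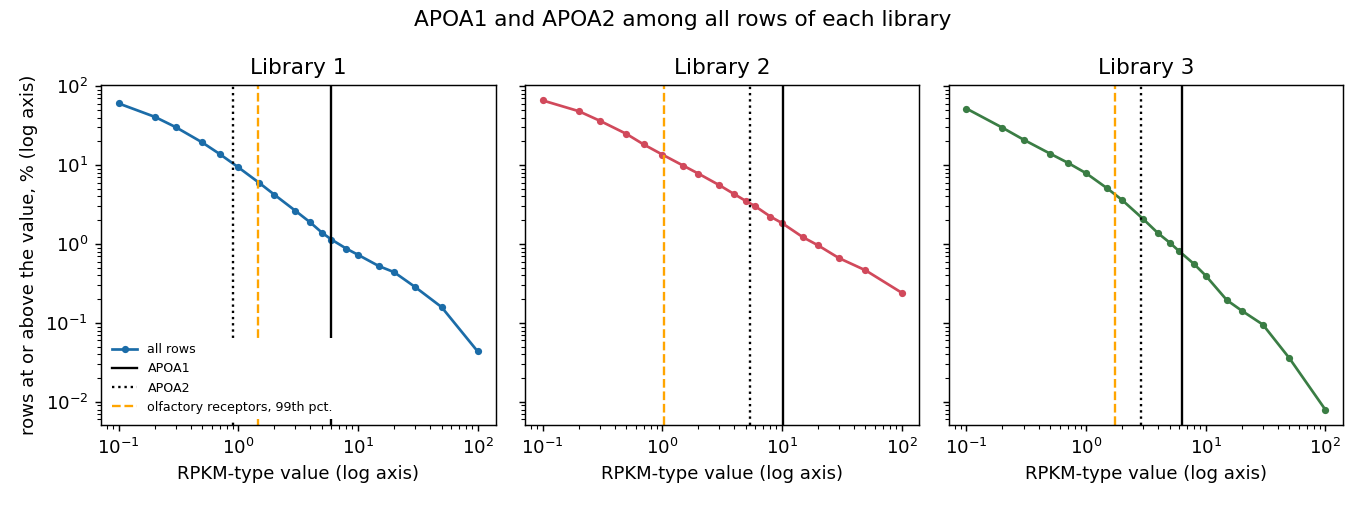
Share of all 25197 rows at or above a given value in each library (both axes are log axes), with vertical lines at APOA1 (solid), APOA2 (dotted) and the olfactory receptor level described in the text, their 99th percentile (dashed). APOA1 lies to the right of the dashed line in all 3 libraries, and APOA2 to its left in library 1, at 0.9 against 1.45.

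Which library held the most APOA1 depended on the scale. As deposited, library 2 was the highest. As a share of the summed value of its library, APOA1 made up 343, 257 and 661 ppm (a share of 1000000) in libraries 1, 2 and 3, which puts library 3 first and library 2 last. Divided by the median of the detected rows, the values were 1.94, 1.49 and 2.52, in the same order as the shares. APOA2 made up 51.5, 135 and 304 ppm, and 0.290, 0.783 and 1.16 times the median of detected rows. Library 3 was thus first for both genes on both relative scales. It was also the library with the lowest summed value and the highest 99th percentile of olfactory receptor rows. The 95th percentile and the mean of those rows were highest in library 1 (0.7 and 0.217, against 0.625 and 0.183 in library 3). The summed value is the divisor of the share, so it enters the order in ppm by definition. In libraries 1 and 3 APOA1 was at 6 and 6.3 as deposited, with sums of 17480.7 and 9531.8. The part of these properties in the result was otherwise not tested.

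**Figure D3:**
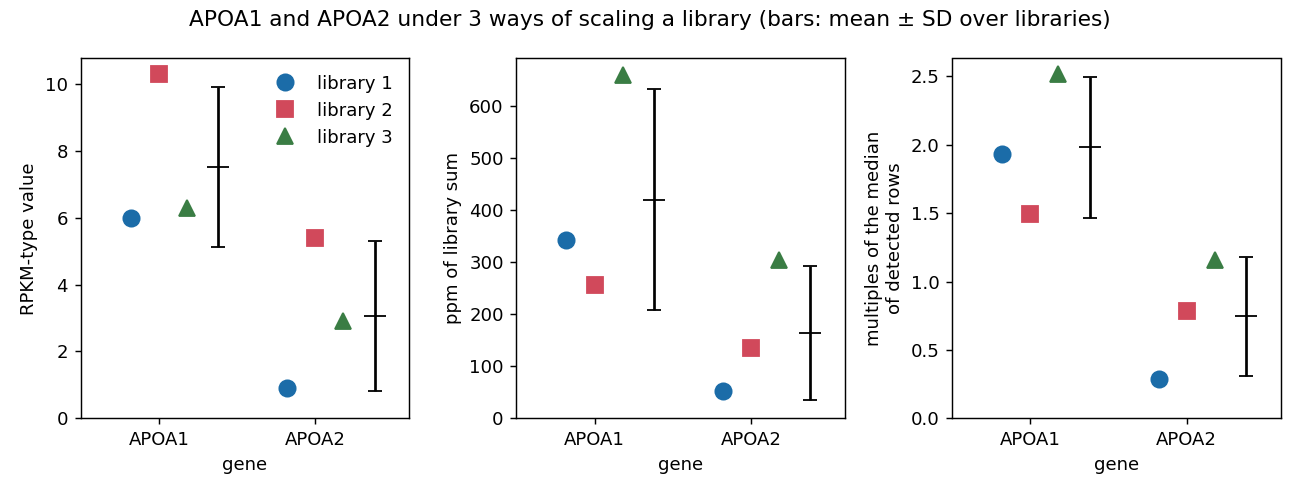
APOA1 and APOA2 in libraries 1, 2 and 3 as deposited values (left), ppm of the library sum (middle) and multiples of the median of detected rows (right); bars give the mean ± SD over the 3 libraries. Library 2 is the highest for both genes on the left, and library 3 in the middle and on the right.

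As deposited, APOA1 varied less between libraries than most detected rows. Its SD of log2(value + 1) was 0.38, at the 23.0th percentile of the 981 detected rows, whose median SD was 0.78. The highest of its values was 1.72 times the lowest. Among the 237 detected rows with a mean within 1.5 times that of APOA1, the median of this ratio was 5.29, and APOA1 lay at the 5.27th percentile. This ordering did not hold when every library was rescaled to the same sum. The SD of APOA1 then rose to 0.63, at the 55.9th percentile. APOA2 had an SD of 0.88 and a ratio of 6 between its highest and lowest value.

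The other 7 genes gave 21 values, of which 9 were listed at 0 and 20 were 0.2 or less. None reached the olfactory receptor percentile in any library. APOM, a carrier of sphingosine 1-phosphate in high density lipoprotein, stood at 0.5, 0.2 and 0 in libraries 1, 2 and 3. APOB, the structural protein of very low density particles and chylomicrons, stood at 0.2, 0.1 and 0.1. It was the only one of these 7 with a value above 0 in all 3 libraries. As 60.4%, 65.9% and 52.0% of all rows reached 0.1 in libraries 1, 2 and 3, nothing is read from this.

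APOA4, a protein of intestinal lipoproteins, was at 0.2, 0.2 and 0. APOC3, which inhibits lipoprotein lipase, was at 0, 0.2 and 0.1. APOE, the ligand of several lipoprotein receptors, had the same values as APOC3. APOH, a phospholipid-binding plasma protein, was at 0.1 in library 1 and at 0 in the others. APOC2, the cofactor of lipoprotein lipase, was listed at 0 in all 3 libraries. Values of 0.1 and 0.2 are 1 or 2 rounding steps, so no order among these genes can be read from them.

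APOA1 was higher than each of the other 8 genes in 3 of 3 libraries, and APOA2 was higher than each of the 7 low genes in 3 of 3. The 7 genes were called low from these same values, so comparisons with them describe that split and do not test it. Mean differences in log2(value + 1) from the 7 low genes ran from 2.78 (APOM) to 3.06 (APOC2) for APOA1 and from 1.57 (APOM) to 1.86 (APOC2) for APOA2. All 15 pairs gave p = 0.25 before and after Benjamini-Hochberg adjustment (exact sign-flip permutation test, two-sided, n = 3), the smallest value possible. The lowest of these margins, 0.34, was that of APOA2 over APOM in library 1.

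APOA1 shares its locus with other family members, and the neighbours were compared after the values were seen. In the RefSeq annotation of the sheep assembly ARS-UI_Ramb_v3.0, APOC3, APOA4 and APOA5 follow on one side of APOA1, in that order among genes that have a row. All 3 stayed low. APOA5, a regulator of plasma triglyceride, was at 0.2, 0.4 and 0.7 in libraries 1, 2 and 3, and APOC3 and APOA4 did not pass 0.2. On the other side, the kinase gene SIK3 reached 0.2 at most, PAFAH1B2 reached 0.3 and SIDT2 was listed at 0. The value of APOA1 was not shared by the 3 nearest genes with a row on either side. As 82.1% of all rows stayed below 1 in every library, nothing particular to the locus is read from this.

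Genes next to APOA2 were also compared after their values were seen. The nuclear receptor gene NR1I3 and the Fc receptor subunit gene FCER1G were listed at 0 in all libraries. TOMM40L was at 0.5, 0.2 and 0. SDHC, a subunit of respiratory complex II a little farther away, was at 0.4, 3.9 and 0.7, below APOA2 in each library.

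Of 16 symbols listed for other apolipoproteins and related proteins, 8 had a row and 0 of these were detected, beside 3.89% of all rows. APOO, a protein of the mitochondrial inner membrane despite its name, was at 0.2, 4.5 and 0 in libraries 1, 2 and 3. APOPT1, a mitochondrial protein that is not an apolipoprotein, was at 0.8, 7.2 and 0. Both were at 0.8 or less in libraries 1 and 3, where APOA1 was at 6 or more. SAA4, a serum amyloid A protein of high density lipoprotein, was at 1, 0.2 and 0.6. Median log2(value + 1) over the 8 rows was 0.37, 0.54 and 0.20, beside 0.14 for all rows.

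The label of extraembryonic endoderm was checked against 28 marker genes of that tissue, of which 26 had a row. Of these, 2 were detected (7.69%, beside 3.89% of all rows) and 22 stayed below 1 in all libraries, as did 82.1% of all rows. At a detection value of 2 the count was 0. The detected ones were DAB2, an adaptor of endocytosis, at 1.1, 14.6 and 1.5, and the calcium-binding S100G at 2.6, 11.9 and 1.6. DAB2 is also known from trophoblast, and S100G from trophectoderm and uterine epithelium. In libraries 1 and 3 DAB2 did not reach the olfactory receptor percentile, and S100G did not in library 3. Median log2(value + 1) over the 26 rows was 0.14, 0.26 and 0.14, beside 0.14 for all rows in each library.

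Several secreted and endocytic markers of that tissue were at or near 0. TTR, the carrier of thyroid hormone, and RBP4, the carrier of retinol, reached 0.3 at most. TF (transferrin) and AMN (the anchor of the cubilin receptor) were listed at 0 in all libraries. CUBN, cubilin itself, which binds APOA1 for uptake, did not pass 0.1, and LRP2, its partner in endocytosis, was at 0.4, 0.2 and 0.3.

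AFP, the main plasma protein of the yolk sac, was at 0.1, 0.1 and 1.3 in libraries 1, 2 and 3. SOX17, an endoderm regulator, was at 1, 0.9 and 0. GATA4, GATA6, FOXA2 and HNF4A, transcription factors of endoderm, did not pass 0.2. These values do not identify extraembryonic endoderm as the source of the RNA, and the genes are called apolipoproteins here without a tissue. In vesicle RNA, fewer releasing cells of a type and less RNA released per cell cannot be told apart.

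**Figure D4:**
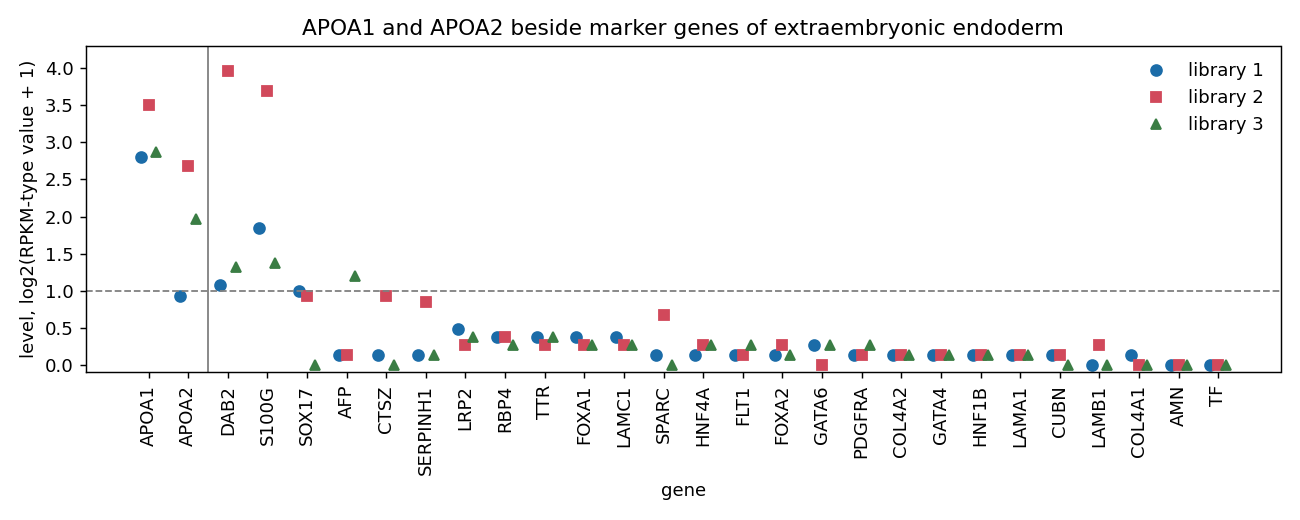
Levels of APOA1 and APOA2 (left of the vertical line) and of 26 marker genes of extraembryonic endoderm (right, by falling mean) as log2(value + 1), with 1 point per library; the dashed line marks a value of 1. DAB2 and S100G lie above the line in all 3 libraries, and 22 of the 26 markers stay below it throughout.

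Markers of the other tissues that make apolipoproteins lay near the level of the table as a whole. None of 22 plasma protein genes of hepatocytes was detected, beside 3.89% of all rows. In all libraries 21 of them stayed below 1, beside 82.1% of all rows. Median log2(value + 1) over the 22 genes was 0.14 in each library, as for all rows, so nothing particular to the list is read from these counts. The gene that reached 1 was AHSG, which encodes fetuin-A, at 0, 0.4 and 1.8. ALB (albumin) was at 0.5, 0.4 and 0.4 and FGB (fibrinogen beta chain) at 0.7, 0.2 and 0.7. The summed level of this list was 2.5, 2.7 and 4.4 in libraries 1, 2 and 3, below APOA1 alone. Of 9 enterocyte genes 0 were detected, beside 3.89% of all rows. The glucose transporter SLC5A1 (0.9, 0.2 and 0), the fatty acid binder FABP1 (0.3, 0.1 and 0.4) and the regulator CDX2 (0.5, 0.2 and 0) led them. CDX2 is also on the trophectoderm list. FABP2, which defines enterocytes, was listed at 0. None of 9 blood cell genes was detected, beside 3.89% of all rows, so nothing is read from the enterocyte or blood count. AIF1 (0.3, 2.8 and 4.1), CD74 (1.5, 1.3 and 0.1) and EPB42 (0.4, 0.9 and 0.5) led the blood cell genes. Without replicate 1, or without replicate 3, 1 blood cell gene met the rule.

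Epithelial genes of the conceptus and the uterus included higher values. Of 10 trophectoderm genes 6 stayed below 1 in all libraries, beside 82.1% of all rows. By the rule 2 were detected (20%, beside 3.89% of all rows), and 3 at a detection value of 0.5. The 2 were the keratin KRT8 at 26.3, 138.9 and 27.3 and the interferon tau gene TP-1 at 6.7, 26.2 and 4.7. GATA3, a trophoblast regulator, stood at 0.9, 0.9 and 3. APOA1 was 0.896, 0.393 and 1.34 times TP-1 in libraries 1, 2 and 3. Of 8 uterine epithelium genes 4 were detected (50%, beside 3.89% of all rows). The count was 2 at a detection value of 2, 5 without replicate 1 and 6 without replicate 3. The uterine genes were led by the galectin LGALS15 (18.8, 74.2 and 4.5), the protease inhibitor CST6 (24.9, 49.1 and 1.1) and the ion transport regulator FXYD4 (10.4, 30.2 and 1.8). As deposited, the summed level of the uterine list was 63.8, 182.6 and 10.9, highest in library 2 and lowest in library 3. APOA1 as deposited was also highest in library 2, whereas its share of the library sum was highest in library 3. Whether these lists had a part in the APOA1 values was not tested.

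Genes that assemble lipoproteins and load lipid were mixed. MTTP, the transfer protein that APOB needs for assembly, was listed at 0 in all 3 libraries. Of 16 genes for assembly and lipid loading 7 stayed below 1 in all libraries, beside 82.1% of all rows. The median log2(value + 1) over the 16 genes was 0.38, 0.96 and 0.07 in libraries 1, 2 and 3, beside 0.14 for all rows. By the rule 1 was detected (6.25%, beside 3.89% of all rows), SAR1A, a GTPase of vesicle budding from the endoplasmic reticulum, at 1.1, 10.7 and 3.5. FABP5, a fatty acid binder, was at 0.1, 2.5 and 6.3, and PLIN3, a lipid droplet coat protein, at 2.8, 4.9 and 0. FABP5 was highest in library 3 and PLIN3 was at 0 there. The count of 1 was 3 without replicate 1, 4 without replicate 3, 2 at a detection value of 0.5 and 0 at a value of 2.

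The genes of high density lipoprotein formation lay at the level of the table as a whole, with a median log2(value + 1) of 0.14 in each library, as for all rows. Of 15 genes 0 were detected, beside 3.89% of all rows, and 14 stayed below 1 throughout, beside 82.1% of all rows. No result about the group is read from these counts. PON2, a lactonase of the paraoxonase family, was at 0.1, 1.7 and 1.6 and met the rule without replicate 1. APOA1BP, which encodes a binding partner of APOA1, was at 0, 0.7 and 0.6, and PON3 at 0.4, 0.2 and 0.5. ABCA1, the pump that hands cholesterol to APOA1, did not pass 0.1, nor did LCAT, the enzyme that APOA1 activates, or SCARB1, the receptor of high density lipoprotein.

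Of 13 genes for lipoprotein receptors and uptake, DAB2 (values above) was the detected one (7.69%, beside 3.89% of all rows), and 0 were at a detection value of 2. LRPAP1, a chaperone of receptors of this family, followed at 0.6, 1 and 0.2, and LRP2 came next. Transcription factors known to act on apolipoprotein genes gave 0 detected of 23, near the 3.89% of all rows, and 1 at a detection value of 0.5, with NR2F2 (0.6, 0.6 and 1.2), CEBPB (0.1, 0.8 and 0) and FOXA1 (0.3, 0.2 and 0.2) the highest. Median log2(value + 1) of these 23 genes was 0.14 in each library, the same as for all rows.

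Several genes had values much like those of APOA1 and APOA2. Likeness was the Euclidean distance between the 3 values of log2(value + 1), over 18261 other rows with a symbol. With 3 libraries it mostly reflects level and the height of library 2. For APOA1 the nearest rows were 5_8S_rRNA_5, a copy of 5.8S ribosomal RNA (distance 0.28), the signal peptidase subunit SEC11A (0.35), the mitochondrial ribosomal protein MRPL20 (0.36), the clathrin adaptor AP2M1 (0.39) and the respiratory complex III subunit UQCRC2 (0.39). SEC11A stood at 4.8, 11.3 and 5.4 in libraries 1, 2 and 3. For APOA2 they were the selenoprotein gene SEPW1 (0.20), fumarate hydratase FH (0.21), the GTPase RAB18 (0.25), NT5DC2 (0.27) and the dipeptidase CNDP2 (0.39). SEPW1 stood at 0.8, 5 and 2.5. No apolipoprotein or endoderm marker was among these 10 rows. The 7 low apolipoprotein genes, at 0.5 or below, could not be near by this measure. Nor could the 22 endoderm markers that stayed below 1 in all libraries. Nothing is read from the absence of either group.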

How the data were processed

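RNA from vesicles was sequenced in 3 libraries of 1 group. Per the labels' protocols, medium was passed through a 0.2 µm filter, vesicles were precipitated with ExoQuick-TC, and 5 ng of total RNA went into SMART-Seq v4 libraries read as pairs of 50 bp. The submitters' processing notes name the build Oar_v3.1; for aligner and counting program the entry is "not given in the sources used here". A single deposited table holds values with 1 decimal and no stated unit. They are treated as RPKM of the authors' making. Rows of the short U6 RNA stepped by 0.423 to 0.543 while other rows held values of 0.1, and columns do not sum to a fixed total. Steps were not compared over gene lengths, and FPKM would look alike. Whole reads could not be recovered without gene lengths, so no count model was fitted. The worth of 1 read was fitted to 1012 U6 rows (94.3% to 95.3% of the values used lay within 0.1 of a multiple).

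Columns were matched to libraries by title. Gene families, lists and tests were chosen with earlier results of these data known. Differences used log2(value + 1), a pseudocount of 1 that understates those of low genes, and an exact sign-flip permutation test. Percentiles count ties by their midpoint. Named genes were all 9 family members, the 3 rows with the highest mean of each list, the 5 nearest profiles of APOA1 and APOA2, and 16 endoderm, uptake, assembly and plasma protein genes whatever their value; the genes next to APOA1 and APOA2, and others named for low values, were added after their values were seen. All 9 symbols matched the RefSeq table, which served only for gene order. Some genes that were compared are not reported here. No sequence was used here. Functions were tested on simulated data. Python 3.11.15, pandas 2.3.3, numpy 2.4.6, scipy 1.17.1 and matplotlib 3.10.9 were used.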

Additional observations from a re-analysis of the deposited data

How the results depend on the processing

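APOA1 stayed above APOA2 under every alternative tried, at a log2 difference between 1.26 and 1.54 with pseudocounts of 0.1 and 0.5 or with libraries rescaled to the same sum, and between 0.86 and 1.39 with 1 library left out; no p could fall below 0.25. Without replicate 1 APOA2 was detected too, and the count of detected members was 2, as it was at a detection value of 0.5, with detection in at least 2 libraries, and after rescaling to the mean library sum; with other libraries left out it was 1. As a share of the library sum, APOA1 averaged 420 and APOA2 163.5 ppm, and without the 100 highest rows in the sum APOA1 averaged 676 and APOA2 258.9 ppm. With a library left out APOA2 averaged 93.1 (without replicate 3) to 219.5 ppm (without replicate 1). Among rows that reached 1 in a library, the mean percentile was 93.1 for APOA1 and 72.1 for APOA2. The number of libraries in which APOA2 exceeded the olfactory receptor level was 1 against the highest such row, and 1 to 2 with a library left out. The SD of APOA1 was 0.63 after rescaling, and 0.043 to 0.49 with a library left out; that of APOA2 was 0.51 to 1.24. The cause of these shifts was not tested. No paired analysis was possible because with 1 group no replicate number is shared between groups; the differences between genes above are within libraries. Rounding to 0.1 limits the 7 low genes, whose values are 0 to 5 such steps. The estimated depth was highest in library 1, which held the lowest APOA2 value. Counts for the related lists that changed are given beside each list.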
